A study of Mus musculus with 12 samples.

Results

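The genes described here are 10 members of the fibroblast growth factor (FGF) family, picked by name from the 36186 genes in the deposited count table. They are the 5 ligand genes Fgf1, Fgf7, Fgf9, Fgf10 and Fgf20 and the 5 receptor genes Fgfr1, Fgfr2, Fgfr3, Fgfr4 and Fgfrl1. All 10 passed the filter on low counts in each of the 4 comparisons, so none was left untested.

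FGF ligands are secreted proteins that bind heparan sulfate and activate receptor tyrosine kinases, which signal through the adaptor Frs2 to the MAP kinase cascade. In the embryonic kidney, Fgf9 and Fgf20 keep nephron progenitors undifferentiated, whereas Fgf7 and Fgf10, made by mesenchymal and stromal cells, act on the epithelial splice form of Fgfr2 in the branching ureteric bud. Fgfr1 and Fgfr2 are needed for the metanephric mesenchyme, and Fgfrl1, a receptor without a tyrosine kinase domain, is needed for nephron formation.

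RNA from whole kidneys of mouse embryos at E18.5 was sequenced in 12 libraries, 3 for each of 4 genotypes, on a mixed 129/CD1 background. The wild type libraries are Wt_30, Wt_37 and Wt_55. AkCh libraries (AkCh_20, AkCh_31 and AkCh_33) are labelled Hoxa9,10,11-/- with HoxC9,10,11+/-, AhCk libraries (AhCk_38, AhCk_110 and AhCk_115) Hoxa9,10,11+/- with HoxC9,10,11-/-, and AkCk libraries (AkCk_24, AkCk_27 and AkCk_29) homozygous mutant for both sets. The study's text instead describes the sequenced double mutants as lacking Hoxa9 and Hoxa10 with at least 1 wild type Hoxa11 allele. It also reports that mutants lacking all of Hoxa9,10,11 and Hoxc9,10,11 had no detectable kidneys at E18.5. By that text the AkCk kidneys kept some Hoxa11, although the labels do not tell which Hoxa11 alleles each AkCk library carries. The mutant alleles are frameshifts made by small deletions in the first exons. The 3 AhCk libraries come from a separate sequencing run from the other 9, so for AhCk the genotype and the run cannot be told apart. In whole kidneys, fewer cells of a type and less RNA per cell cannot be told apart either.

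The targeted genes do not check the labels. In Hoxc9, Hoxc10 and Hoxc11 most of the transcript lies outside the deleted part. The sizes of the Hoxa deletions are not given in the sources used here, so the Hoxa genes cannot check the labels either. Hoxa10 had 125, 152 and 165 CPM (counts scaled to library size by TMM) in Wt_30, Wt_37 and Wt_55, 153, 103 and 107 in AkCh_20, AkCh_31 and AkCh_33, 113, 104 and 114 in AhCk_38, AhCk_110 and AhCk_115, and 100.3, 104 and 112 in AkCk_24, AkCk_27 and AkCk_29. Hoxc10 had 50.2, 58.8 and 66.9 CPM in Wt, 121, 45.3 and 41.6 in AkCh, 32.1, 36.6 and 51.6 in AhCk and 37.8, 29.1 and 35.8 in AkCk. Transcripts of both genes were thus counted in every mutant library, as were those of Hoxa9, Hoxa11, Hoxc9 and Hoxc11, the lowest value being 0.892 CPM for Hoxc11 in AkCk_27. In AkCk against Wt, Hoxa10 (log2 fold change -0.49, SE 0.11, adjusted p = 0.0270 by edgeR) and Hoxc10 (log2 fold change -0.78, SE 0.14, adjusted p = 0.0127) were lower, and the other 4 did not pass the threshold of 0.05.

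AkCh_20 stood apart from its group. Its root-mean-square log2 difference from the other AkCh libraries, over 13243 genes, was 0.848, and the same distance was between 0.195 and 0.498 in the other 11 libraries. It had the fewest counts, the highest Six2 (164 CPM, from 13.2 to 105 elsewhere) and the lowest Lrp2 (179 CPM, from 425 to 1126 elsewhere). Results that rest on it are given with and without it. The sexes were unequal between groups, since Ddx3y, a gene of the Y chromosome, lay above Xist in 3 of 3 Wt, 1 of 3 AkCh (AkCh_20), 2 of 3 AhCk (AhCk_38 and AhCk_115) and 1 of 3 AkCk libraries (AkCk_24).

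To compare one gene with another, CPM was divided by exon length (RPKM). The length joins all GENCODE M21 exons of a gene, and the annotation used for counting is not given. It may thus include exons that were not counted, so orders and shares between genes are approximate. In wild type the order by mean RPKM (± SD, n = 3) was Fgfr1 (27.1 ± 1.93), Fgfr2 (15.8 ± 0.948), Fgfrl1 (15.05 ± 1.07), Fgfr4 (11.7 ± 1.42), Fgfr3 (5.18 ± 0.616), Fgf1 (5.16 ± 0.681), Fgf9 (2.44 ± 0.244), Fgf10 (1.95 ± 0.0279), Fgf20 (0.803 ± 0.142) and Fgf7 (0.0952 ± 0.0373). The receptor genes thus headed the order in wild type. The Wt libraries overlapped between Fgfr2 and Fgfrl1 and between Fgfr3 and Fgf1, and not between the other neighbors. Fgf7 was last in RPKM in Wt, AkCh and AhCk, while in AkCk it lay above Fgf20, at 0.673 ± 0.197 RPKM against 0.224 ± 0.183, with no overlap between the libraries of the pair.

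**Figure D1:**
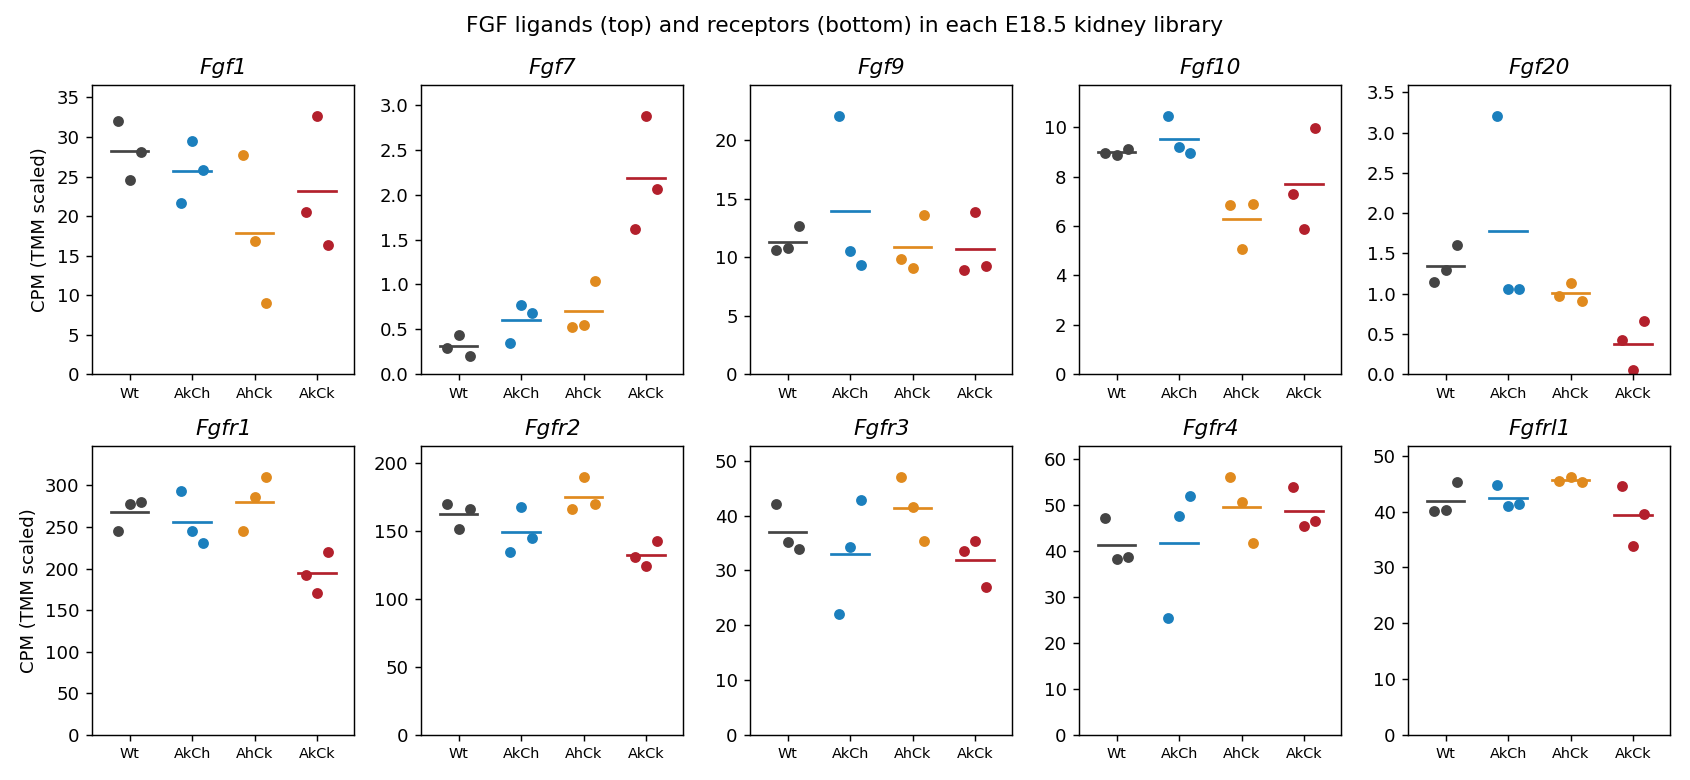
CPM (TMM scaled, linear axes) of each FGF ligand gene (top row) and receptor gene (bottom row), with a point for each of the 12 libraries and a line at the mean of each genotype. Fgf7 lies at 1.62 CPM or more in the AkCk libraries and at 1.04 or less in the others, and AkCh_20 is the highest point for Fgf20 and Fgf9.

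In the kidneys labelled mutant for both sets, the ligand gene Fgf7 was higher than in wild type and the receptor gene Fgfr1 was lower. These were 2 of 10 members past the threshold of edgeR in AkCk against Wt, beside 13.7% of the 15839 genes tested. By direction, 1 of 10 was higher beside 6.31% of all genes tested, and 1 of 10 was lower beside 7.40%. Members were thus called about as often as genes in general. In 4 of 10 members the AkCk and Wt libraries did not overlap (Fgf7 higher, and Fgf20, Fgfr1 and Fgfr2 lower), beside 38.1% of all genes tested, again close to the general share. The median log2 fold change was -0.22 over the members and -0.0080 over all genes tested. The number of genes past the threshold was 2171 with all libraries, and 3386 without Wt_30, 535 without Wt_37, 633 without Wt_55, 793 without AkCk_24 and 1101 without AkCk_27. The p-values measure the spread between these samples, which may be technical.

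Fgf7, also called keratinocyte growth factor, is a mesenchymal ligand for the epithelial form of Fgfr2. It lies at chr2:126034658-126091185 on the plus strand (GRCm38). Its level was 0.292, 0.438 and 0.198 CPM in Wt_30, Wt_37 and Wt_55 and 1.62, 2.88 and 2.06 CPM in AkCk_24, AkCk_27 and AkCk_29. AkCh_20, AkCh_31 and AkCh_33 had 0.348, 0.772 and 0.686 CPM, and AhCk_38, AhCk_110 and AhCk_115 had 0.529, 0.553 and 1.04 CPM. Every AkCk library thus lay above every library of the other genotypes. The values rest on few counts, 11, 19 and 8 in Wt and 62, 113 and 75 in AkCk. The 95% Poisson interval, which covers counting error only, was 0.264 to 0.684 CPM in Wt_37, the highest Wt library, and 1.24 to 2.08 CPM in AkCk_24, the lowest AkCk library. In AhCk_115, the highest library of the other genotypes, it was 0.770 to 1.37 CPM, so the intervals of AkCk_24 and AhCk_115 overlapped and those of AkCk_24 and Wt_37 did not. The log2 fold change was 2.80 (SE 0.37, 95% interval 1.93 to 3.67, adjusted p = 0.00564 by edgeR), a 6.97-fold rise. Fgf7 passed the threshold in 8 of 8 alternatives and in 6 of 6 fits that left out a library, with log2 fold changes from 2.55 to 3.16 in the latter.

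The sequence before the start of Fgf7 is shown beside that of Fgf10, a ligand of the same subfamily. Of the 10 members, 7 had an entry in the RefSeq promoter table (build GRCm38.p6). The 250 bases before the start are chr2:126034408-126034657 for Fgf7 and chr13:118714449-118714698 for Fgf10, both on the plus strand. In GENCODE M21 neither stretch overlaps an exon of its gene, and the Fgf10 stretch lies within the span of 2 of its 3 transcripts. Capitals mark TTTAT or TTTAC, the core letters preferred in vitro by posterior Hox proteins, on either strand (ATAAA or GTAAA as read here), and they were searched for after the values were seen.
Fgf7: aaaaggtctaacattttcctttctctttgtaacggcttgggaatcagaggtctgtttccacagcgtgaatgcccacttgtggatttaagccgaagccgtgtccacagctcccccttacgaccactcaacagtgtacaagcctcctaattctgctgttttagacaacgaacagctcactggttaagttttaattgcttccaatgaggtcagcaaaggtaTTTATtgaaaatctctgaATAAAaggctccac
Fgf10: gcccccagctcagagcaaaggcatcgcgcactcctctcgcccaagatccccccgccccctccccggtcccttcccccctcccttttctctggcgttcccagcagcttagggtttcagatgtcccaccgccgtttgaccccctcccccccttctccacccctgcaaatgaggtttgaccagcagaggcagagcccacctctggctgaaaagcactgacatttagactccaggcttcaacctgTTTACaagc
TTTAT was found 2 times before Fgf7 and 0 times before Fgf10, and TTTAC 0 times before Fgf7 and 1 time before Fgf10. Of the other 5 members with an entry, Fgf9 had 1 TTTAT and 2 TTTAC, more matches than Fgf7, Fgfr2 had 1 TTTAT, Fgfr3 had 1 TTTAT before one of its starts, and Fgfr4 and Fgfrl1 had 0 of either. Such short letters are common, as 37.3% of 32851 stretches of the same length hold TTTAT and 28.3% hold TTTAC on either strand. A match is a description, not a site or a cause.

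Fgf20 is a ligand of nephron progenitors. It had 1.14, 1.29 and 1.61 CPM in Wt_30, Wt_37 and Wt_55 and 0.418, 0.0510 and 0.660 CPM in AkCk_24, AkCk_27 and AkCk_29. AkCh_20, AkCh_31 and AkCh_33 had 3.21, 1.06 and 1.06 CPM, and AhCk_38, AhCk_110 and AhCk_115 had 0.969, 1.13 and 0.913 CPM. All AkCk libraries were thus below all others, and AkCh_20 was the highest. AkCk_27 held 2 counts of Fgf20, fewer than the floor of 3, with a 95% Poisson interval of 0.00617 to 0.184 CPM. In AkCk_29 the interval was 0.423 to 0.981 CPM, which overlaps those of Wt_30 (0.825 to 1.54 CPM) and Wt_37 (0.976 to 1.68 CPM) and covers the values of AhCk_38 and AhCk_115. The intervals of AkCk_24 (0.239 to 0.679 CPM) and AkCk_27 lie below those of the 3 Wt libraries. The log2 fold change in AkCk against Wt was -1.85 (SE 0.61, 95% interval -3.26 to -0.44), and its adjusted p of 0.0818 by edgeR missed the threshold. The log2 fold change ran from -2.52 without AkCk_29 to -1.32 without AkCk_27, with an adjusted p from 0.0560 to 0.211 over the fits that left out a library. DESeq2 gave an adjusted p of 0.0325, within a range over the alternatives from 2.19e-17 (Audic-Claverie, which has no term for the spread between replicates) to 0.224. Fgf20 shares 202 exon bases with Micu3 on the opposite strand (4027 counts over the 12 libraries), and the sources used here give no strand setting, so reads of the pair in this stretch may have been counted for either.

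For the other 3 ligand genes the AkCk and Wt libraries overlapped. Fgf9, which acts with Fgf20 on nephron progenitors, had 10.6, 10.8 and 12.6 CPM in Wt and 8.93, 13.8 and 9.29 in AkCk (log2 fold change -0.087, SE 0.19, with a 95% interval of -0.52 to 0.35). Fgf10, a mesenchymal ligand of Fgfr2, had 8.97, 8.88 and 9.13 CPM in Wt and 7.29, 5.89 and 9.98 in AkCk (-0.22, SE 0.19). Its values were thus close together in Wt and spread in AkCk, where AkCk_29 lay above every Wt library. Fgf1, which binds all of the tyrosine kinase FGF receptors, had 32.0, 24.5 and 28.1 CPM in Wt and 20.5, 32.7 and 16.3 in AkCk (-0.28, SE 0.24). With a library left out, the log2 fold change ran from -0.45 to -0.060 for Fgf10 and from -0.62 to -0.086 for Fgf1. Neither passed the threshold in these fits, where the lowest adjusted p of Fgf1 was 0.0633 by edgeR.

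Fgfr1, a receptor of the metanephric mesenchyme, was the receptor gene past the threshold. It lies at chr8:25513654-25575718 on the plus strand (GRCm38). Its level was 246, 278 and 279.8 CPM in Wt_30, Wt_37 and Wt_55 and 192, 171 and 220.3 CPM in AkCk_24, AkCk_27 and AkCk_29. AkCh_20, AkCh_31 and AkCh_33 had 293, 245 and 231 CPM, and AhCk_38, AhCk_110 and AhCk_115 had 245, 286 and 311 CPM. All 3 AkCk libraries were below the 9 others. The log2 fold change in AkCk against Wt was -0.46 (SE 0.11, 95% interval -0.71 to -0.21, adjusted p = 0.0315 by edgeR), a fall to 0.725 of the wild type level. This call was less firm than that of Fgf7, being past the threshold in 4 of 8 alternatives, with 0.137 as the highest adjusted p, when Xist was a covariate. It was lost without Wt_37, Wt_55, AkCk_24 or AkCk_27 (adjusted p = 0.126, 0.112, 0.101 and 0.0707).

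Fgfr2, the receptor of Fgf7 and Fgf10 on the ureteric epithelium, had 170.2, 152 and 166 CPM in Wt_30, Wt_37 and Wt_55 and 131, 125 and 143 CPM in AkCk_24, AkCk_27 and AkCk_29. AkCh_20, AkCh_31 and AkCh_33 had 135, 168 and 145 CPM, and AhCk_38, AhCk_110 and AhCk_115 had 166, 190.3 and 170.3 CPM. The AkCk libraries were thus below the Wt libraries and overlapped AkCh. The log2 fold change in AkCk against Wt was -0.30 (SE 0.082, 95% interval -0.48 to -0.11), with an adjusted p of 0.0511 by edgeR, 0.0191 by DESeq2 and at most 0.172 over the alternatives. Counts are per gene, so the splice forms of Fgfr2 were not separated, and 314 of its exon bases are shared with Ctbp2 on the same strand.

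For Fgfr3, Fgfr4 and Fgfrl1 the AkCk and Wt libraries overlapped. Fgfr3 had 42.1, 35.2 and 33.9 CPM in Wt and 33.5, 35.3 and 27.01 in AkCk (log2 fold change -0.22, SE 0.13). Fgfr4 had 47.1, 38.2 and 38.7 CPM in Wt and 53.9, 45.4 and 46.6 in AkCk (0.23, SE 0.11, adjusted p = 0.187). Wt_30 was the Wt library that overlapped, and without it Fgfr4 was past the threshold (0.34, adjusted p = 0.0467). Fgfrl1 had 40.1, 40.2 and 45.3 CPM in Wt and 44.6, 33.9 and 39.6 in AkCk (-0.089, SE 0.11, 95% interval -0.35 to 0.17).

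**Figure D2:**
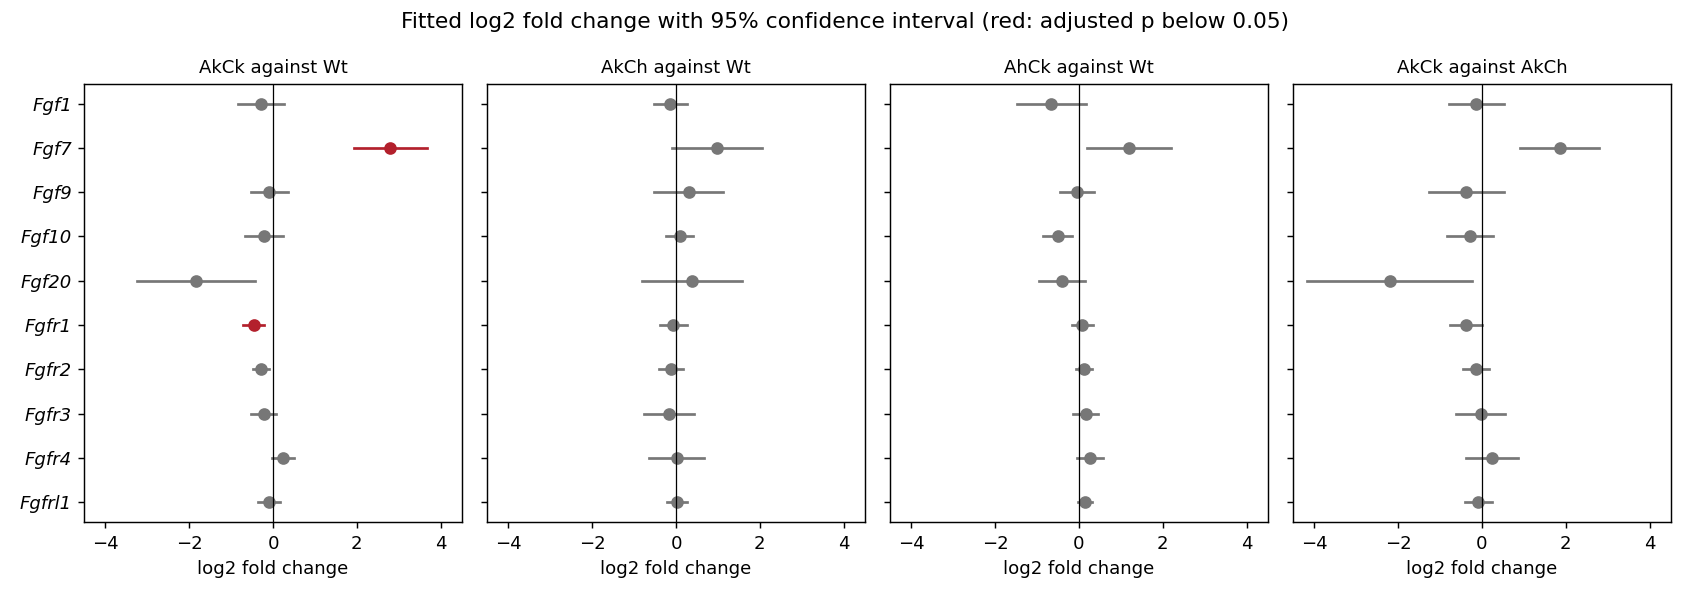
Log2 fold change of the 10 members (points) with 95% confidence intervals (lines) in the 4 comparisons, in red where the adjusted p of edgeR was below 0.05. The red points are Fgf7 at 2.80 and Fgfr1 at -0.46, both in AkCk against Wt.

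The balance of the 4 tyrosine kinase receptor genes was computed after the values were seen and was not tested. Their summed level was 59.7 ± 1.08 RPKM (± SD, n = 3) in Wt, 56.8 ± 3.33 in AkCh, 65.2 ± 2.13 in AhCk and 50.7 ± 3.17 in AkCk. Of this sum Fgfr4 took from 24.8% to 29.3% in AkCk, from 18.2% to 22.0% in Wt, from 13.6% to 25.2% in AkCh and from 18.2% to 25.02% in AhCk. The Fgfr4 share was thus higher in every AkCk library than in every Wt library, and it overlapped AkCh and AhCk. Fgfr1 took from 36.7% to 42.0% of the sum in AkCk and from 41.1% to 48.1% in Wt, which overlapped.

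**Figure D3:**
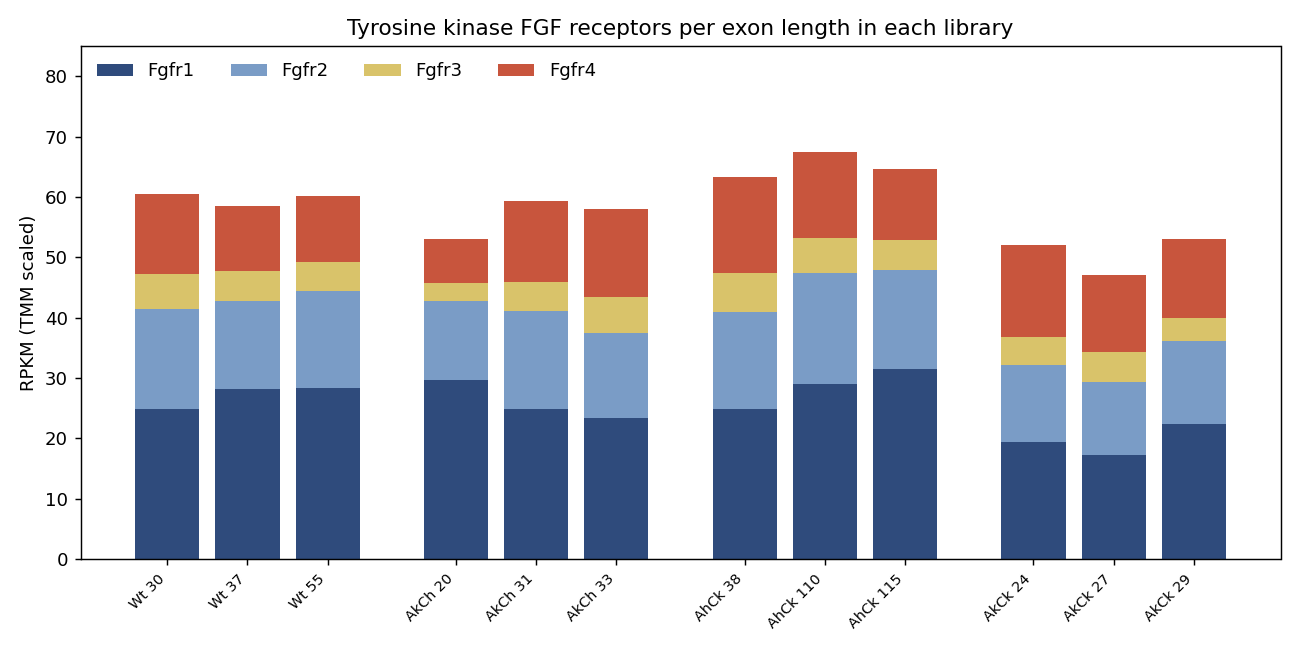
RPKM (TMM scaled) of Fgfr1, Fgfr2, Fgfr3 and Fgfr4 stacked for each library, so that the bar height is their summed level. The AkCk bars average 50.7 RPKM against 59.7 in Wt.

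In the kidneys labelled mutant for Hoxa with 1 set of Hoxc alleles left, no FGF member passed the threshold. In AkCh against Wt this was 0 of 10 members in edgeR, beside 0% of the 15789 genes tested. At an unadjusted p below 0.05 there were 0 members and 360 genes, and DESeq2 called 0 members and 22 genes. All 10 members overlapped between AkCh and Wt, so 0 of 10 were apart beside 8.35% of genes tested. The median log2 fold change was 0.016 over the members and 0.031 over all genes. Fgf7 had a log2 fold change of 0.97 (SE 0.45), and 1.22 without AkCh_20. Fgf20 had 0.38 (SE 0.49) and -0.35 without AkCh_20. Fgf9 had 0.30 (SE 0.34) and -0.19 without it, so the sign of Fgf20 and Fgf9 rested on that library. Without it 8 genes and 0 members were past the threshold.

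In the kidneys labelled mutant for Hoxc with 1 set of Hoxa alleles left, Fgf10 was below wild type in every library without passing the threshold of edgeR. In AhCk against Wt 0 of 10 members passed, beside 2.36% of the 15902 genes tested. At an unadjusted p below 0.05 there were 2 members and 3349 genes, and DESeq2 called 1309 genes and 1 member, Fgf10. In 4 of 10 members the libraries did not overlap (Fgf7 and Fgfrl1 higher, Fgf10 and Fgf20 lower), beside 26.7% of genes tested. The median log2 fold change was 0.098 over the members and 0.014 over all genes. Fgf10 had 6.87, 5.06 and 6.91 CPM in AhCk_38, AhCk_110 and AhCk_115 against 8.97, 8.88 and 9.13 in Wt, with a log2 fold change of -0.51 (SE 0.15, adjusted p = 0.121 by edgeR, and from 0.0440 by DESeq2 to 0.491 over the alternatives). Fgf7 had a log2 fold change of 1.2 (SE 0.43, adjusted p = 0.178). Fgf20 had -0.41 (SE 0.23). Fgfrl1 had 0.14 (SE 0.072). These members were thus apart from Wt by less than Fgf7 in AkCk, a difference that was not tested. Fgf1 overlapped Wt, with 27.7, 16.8 and 8.94 CPM in AhCk_38, AhCk_110 and AhCk_115. Its log2 fold change of -0.66 (SE 0.35, adjusted p = 0.335 by edgeR) was a larger fall than that of Fgf10. It ran from -1.13 to -0.33 with a library left out. The genes past the threshold numbered 376, and 60 without Wt_37, 70 without Wt_55, 63 without AhCk_110 and 99 without AhCk_115. The comparisons with Wt share the same 3 Wt libraries.

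AkCk against AkCh tests the difference between these genotypes within a single run, and Fgf7 was again higher in every AkCk library. By the study's text the double mutants kept some wild type Hoxa11, which the AkCh label does not. The groups may thus differ in Hoxa11 as well as in the Hoxc alleles. In edgeR 0 of 10 members passed, beside 0% of the 15764 genes tested, with 3 members and 1787 genes at an unadjusted p below 0.05. DESeq2 called 554 genes and 1 member, Fgf7. In 3 of 10 members the libraries did not overlap (Fgf7 higher, Fgf20 and Fgfr1 lower), beside 23.0% of genes tested. The median log2 fold change was -0.14 over the members and -0.014 over all genes. Fgf7 had a log2 fold change of 1.85 (SE 0.39), with an adjusted p of 0.211 by edgeR and from 0.00178 (DESeq2) to 0.226 over the alternatives. Without AkCh_20 it was 1.60 (adjusted p = 0.0534), and 687 genes were past the threshold. This was the lowest adjusted p over the edgeR fits that left out a library, and the highest was 0.703. The rise of Fgf7 was thus seen against both other groups of that run, and past the threshold of edgeR against Wt. Fgf20 had -2.20 (SE 0.83, adjusted p = 0.410), and -1.47 (adjusted p = 0.270) without AkCh_20. Fgfr1 had -0.38 (SE 0.16, adjusted p = 0.435), and -0.27 (adjusted p = 0.228) without AkCh_20. Over the edgeR fits that left out a library, the adjusted p reached 0.880 for Fgf20 and 0.949 for Fgfr1.

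Of 13 other FGF ligands, 6 were tested in AkCk against Wt. Fgf5 passed the count filter through the AkCk libraries, where it was high, so its call is no support for a rise. Without it 1 of 5 was higher. With it 2 of 6 were higher and 0 lower, beside 6.31% higher and 7.40% lower of all genes tested. Fgf5, a ligand known from the hair cycle, had 0.0530, 0.0923 and 0.149 CPM in Wt_30, Wt_37 and Wt_55 and 0.679, 0.815 and 0.440 in AkCk_24, AkCk_27 and AkCk_29, on 12 counts in Wt and 74 in AkCk (log2 fold change 2.67, SE 0.47, adjusted p = 0.0138 by edgeR). Fgf18, a ligand with a role in the skeleton and lung, had 0.424, 0.761 and 0.421 CPM in Wt and 2.17, 2.40 and 0.907 in AkCk (log2 fold change 1.76, SE 0.44, adjusted p = 0.0388). Both were higher in every AkCk library than in every Wt library. Fgf5 had too few counts to be tested outside the pair of comparisons that hold AkCk. The call of Fgf5 was past the threshold in 6 of 7 alternatives (adjusted p up to 0.0714) and was lost without Wt_37 (adjusted p = 0.0691). That of Fgf18 was past it in 5 of 8 alternatives (up to 0.0746) and was lost without Wt_30, Wt_37, Wt_55, AkCk_24 or AkCk_27 (adjusted p = 0.0626, 0.0744, 0.135, 0.111 and 0.106). Fgf8, a ligand of the forming nephron with the most counts on this list, had 5.30, 8.23 and 8.56 CPM in Wt and 4.31, 2.60 and 4.97 in AkCk (log2 fold change -0.90, SE 0.28, adjusted p = 0.0713), so it was lower in every AkCk library without passing the test. Fgf15, named after its values were seen, was also lower in every AkCk library without passing, with from 2.04 to 2.82 CPM in Wt and from 0.815 to 1.46 in AkCk (log2 fold change -0.999, SE 0.28, adjusted p = 0.0523). The median log2 fold change of the list was 0.25 without Fgf5 (the value of Fgf3) and 0.31 with it, beside -0.0080 over all genes.

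Of 4 intracellular FGF homologous factors, which do not activate FGF receptors, 3 were tested and 0 passed in edgeR beside 13.7% of all genes tested (2 in DESeq2, beside 3380 of 15839 genes). Fgf11, with the most counts, had from 4.27 to 5.51 CPM in Wt and from 5.67 to 9.15 in AkCk (log2 fold change 0.64, SE 0.21, adjusted p = 0.0822). Fgf12, named after its values were seen, was lower in every AkCk library, with from 3.28 to 5.96 CPM in Wt and from 1.91 to 2.47 in AkCk (log2 fold change -0.95, SE 0.28, adjusted p = 0.0602), so the list did not move one way. Of 12 co-receptors and binding proteins, 11 were tested and 0 passed in edgeR (1 in DESeq2), to be read beside the same shares. Gpc3, a glypican with the most counts, had from 783 to 913 CPM in Wt and from 902 to 984 in AkCk (0.14, SE 0.091). The median log2 fold change was -0.14 for the homologous factors and 0.19 for the co-receptors, beside -0.0080 over all genes.

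Heparan sulfate is the sugar chain that holds an FGF on its receptor. Of 12 genes for enzymes that make or trim it, 2 were higher and 0 lower in AkCk against Wt, with a median log2 fold change of 0.066 beside -0.0080 over all genes. This was 2 of 12 past the threshold beside 13.7% of all genes tested, about the general share. Sulf1, which removes sulfate from the chain outside the cell, had 26.9, 28.7 and 30.1 CPM in Wt and 39.2, 48.4 and 37.8 in AkCk (log2 fold change 0.55, SE 0.11, adjusted p = 0.0212 by edgeR). Extl3, which acts in building the chain, had 122, 112 and 119 CPM in Wt and 143, 135 and 145 in AkCk (log2 fold change 0.26, SE 0.070, adjusted p = 0.0485). Both lay above Wt in every AkCk library. The call of Sulf1 was past the threshold in 4 of 8 alternatives (adjusted p up to 0.185) and was lost without Wt_37, Wt_55 or AkCk_24 (adjusted p = 0.0799, 0.0629 and 0.0513). That of Extl3 was past it in 3 of 8 alternatives (adjusted p up to 0.513, log2 fold change down to 0.15). It was lost without Wt_37, Wt_55, AkCk_24, AkCk_27 or AkCk_29 (adjusted p = 0.170, 0.137, 0.144, 0.0621 and 0.109). Sulf2, a sulfatase with the most counts, overlapped and had from 158 to 176 CPM in Wt and from 175 to 183 in AkCk.

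Among 20 genes that carry the signal from the FGF receptors to the MAP kinases, 1 was higher and 2 were lower, with a median log2 fold change of 0.060 beside -0.0080 over all genes. This was 3 of 20 past the threshold beside 13.7% of all genes tested, about the general share, while the libraries did not overlap in 13 of 20 beside 38.1%. Frs3, an adaptor that binds FGF receptors, had 8.09, 8.44 and 8.27 CPM in Wt and 3.79, 5.35 and 4.20 in AkCk (log2 fold change -0.89, SE 0.16, adjusted p = 0.0156 by edgeR). It was past the threshold in 8 of 8 alternatives and was lost without Wt_37, Wt_55 or AkCk_24 (adjusted p = 0.0699, 0.0578 and 0.0538). Plcg1, the phospholipase that binds the activated receptor, had 117, 119 and 124 CPM in Wt and 98.9, 94.0 and 100.1 in AkCk (log2 fold change -0.30, SE 0.064, adjusted p = 0.0245). Its call was past the threshold in 5 of 8 alternatives (adjusted p up to 0.180) and was lost without Wt_37, Wt_55, AkCk_24 or AkCk_27 (adjusted p = 0.103, 0.0974, 0.0808 and 0.0609). Map2k2, a kinase of the cascade, had 109, 116 and 121 CPM in Wt and 137, 134 and 145 in AkCk (log2 fold change 0.27, SE 0.072, adjusted p = 0.0472). Its call was past the threshold in 3 of 8 alternatives (adjusted p up to 0.180) and was lost in every fit that left out a library, Wt_30, Wt_37, Wt_55, AkCk_24, AkCk_27 or AkCk_29 (adjusted p from 0.0592 to 0.143).

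Feedback inhibitors of FGF signaling are genes that the pathway itself induces. Of 10 tested, 1 was lower and 0 higher in AkCk against Wt, beside 7.40% lower and 6.31% higher of all genes tested, so the count was about the general share. The estimate was below 0 in 9 of 10, with a median log2 fold change of -0.26 beside -0.0080 over all genes. Spred2, an inhibitor of the MAP kinase cascade, had 82.4, 93.8 and 91.0 CPM in Wt_30, Wt_37 and Wt_55 and 63.7, 53.0 and 70.4 in AkCk_24, AkCk_27 and AkCk_29. AkCh_20, AkCh_31 and AkCh_33 had 114.8, 82.3 and 77.0 CPM and AhCk_38, AhCk_110 and AhCk_115 had 74.2, 80.9 and 87.7. The AkCk libraries were thus the lowest of the 12 (log2 fold change -0.52, SE 0.11, adjusted p = 0.0253 by edgeR against Wt), and the call was past the threshold in 4 of 8 alternatives (adjusted p up to 0.169). It was lost without Wt_37, Wt_55 or AkCk_24 (adjusted p = 0.106, 0.0894 and 0.0743). Dusp6, a phosphatase of the MAP kinases with the most counts, had from 114 to 128 CPM in Wt and from 97.1 to 108 in AkCk (log2 fold change -0.25, SE 0.075, adjusted p = 0.0653).

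Etv4 and Etv5 are transcription factors induced by FGF receptors and also by Ret, the receptor of Gdnf on the ureteric tip. These were 2 of 3 ETS factors lower in AkCk against Wt, beside 7.40% of all genes tested, and Etv4 is among the genes that the study picked from these libraries. Etv4 had 37.9, 45.6 and 48.8 CPM in Wt_30, Wt_37 and Wt_55 and 23.6, 14.0 and 27.8 in AkCk_24, AkCk_27 and AkCk_29 (log2 fold change -1.02, SE 0.23, adjusted p = 0.0293 by edgeR). Etv5 had 87.9, 106 and 101 CPM in Wt and 69.9, 48.8 and 76.0 in AkCk (log2 fold change -0.60, SE 0.16, adjusted p = 0.0465). Etv1, the other ETS factor, named after its values were seen, had 15.1, 15.1 and 12.9 CPM in Wt and 11.7, 8.94 and 14.7 in AkCk, which overlapped (log2 fold change -0.29, SE 0.18, adjusted p = 0.307). AkCh_20 was the highest of the 12 libraries for Etv4 and Etv5, and AkCk_27 the lowest. Etv4 and Etv5 were each past the threshold in 4 of 8 alternatives (adjusted p up to 0.172 and 0.130). The call of Etv4 was lost without Wt_37, Wt_55 or AkCk_24 (adjusted p = 0.103, 0.0996 and 0.0755). The call of Etv5 was lost without Wt_37, Wt_55, AkCk_24 or AkCk_27 (adjusted p = 0.158, 0.137, 0.0966 and 0.0521). In AkCh against Wt, AhCk against Wt and AkCk against AkCh, 0 genes of these 7 pathway lists passed in edgeR. Over the pathway lists not yet given, the AkCk and Wt libraries did not overlap in 5 of 6 other ligands, 2 of 3 homologous factors, 2 of 11 co-receptors, 3 of 12 heparan sulfate enzymes, 5 of 10 feedback inhibitors and 2 of 3 ETS factors, beside 38.1% of all genes tested. Fgf5 is among these 5 ligands and passed the count filter through the AkCk libraries, so its lack of overlap is no support.

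**Figure D4:**
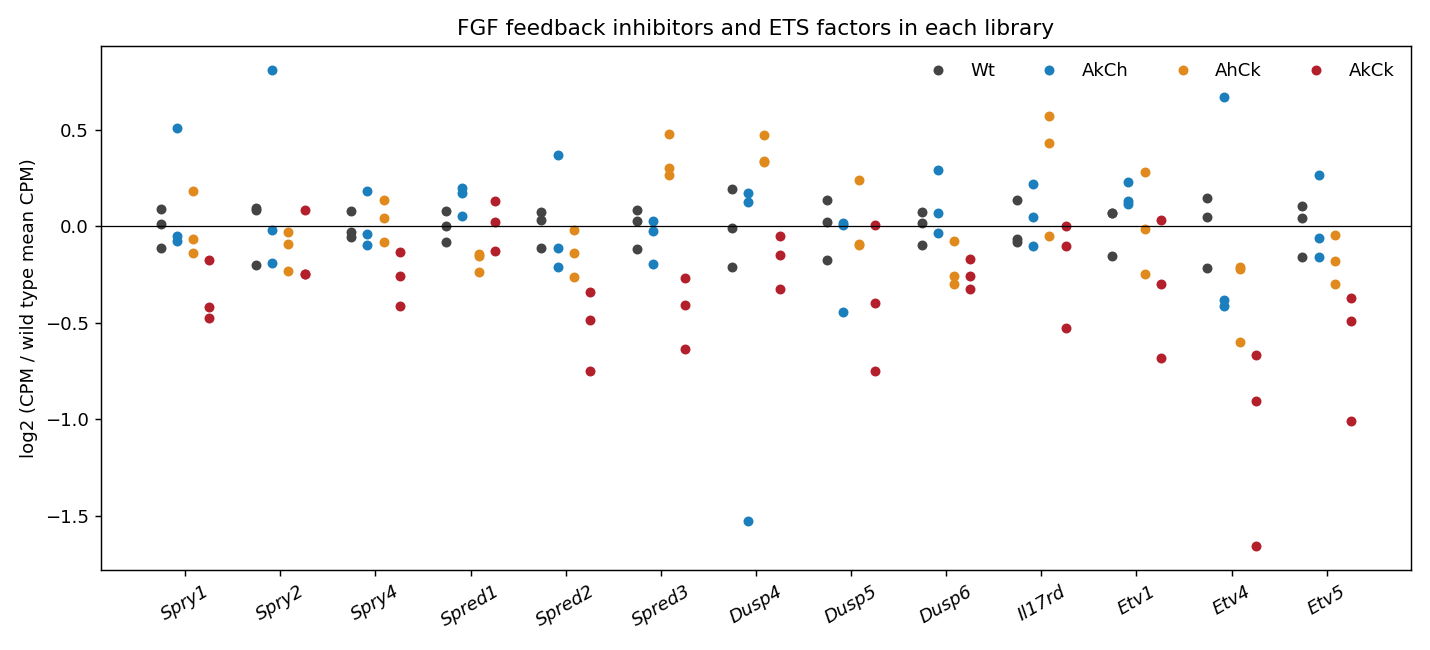
Log2 ratio of CPM to the wild type mean for 10 FGF feedback inhibitors and 3 ETS factors, with a point for each library colored by genotype. Etv4 in AkCk_27 (14.0 CPM, where the Wt mean is 44.1) is among the lowest points.

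Markers of the cells that make or receive these ligands also differed between the groups, and their part in the result was not tested. The counts of markers past the threshold in AkCk against Wt are to be read beside 6.31% higher and 7.40% lower of all genes tested, which a count of 1 in 5 does not set apart. Of 6 matrix genes of the interstitium, 6 were higher in AkCk against Wt and 3 in AhCk against Wt, where 133 of 15902 genes tested were higher and 243 lower. All 6 are among the genes that the study picked from these libraries, so the AkCk count is no separate result. Their summed level was 3844, 3829.8 and 3636 CPM in Wt_30, Wt_37 and Wt_55, 5255, 5418 and 4027 in AkCh_20, AkCh_31 and AkCh_33, 4705, 6044 and 6632 in AhCk_38, AhCk_110 and AhCk_115, and 10860.4, 13218 and 11877 in AkCk_24, AkCk_27 and AkCk_29. Like Fgf7, the sum was higher in every AkCk library than in all others and highest in AkCk_27. Col3a1 had the most counts, and the defining genes Col1a1 and Col1a2 were at or above 805 and 1126 CPM in each library. Of 6 renal stroma genes, 3 were higher and 0 lower, with sums of 675, 795 and 746 CPM in Wt, 986, 762 and 739 in AkCh, 755, 801 and 858 in AhCk and 839, 995 and 969 in AkCk. Pdgfra, which was also a defining gene, had the most counts, and Foxd1 had from 21.3 to 26.5 CPM in Wt and from 35.2 to 40.2 in AkCk. By estimate, 4 of the 6 stroma genes were above 0 and 2 below. Tcf21 had a mean of 219 CPM in Wt and 211 in AkCk, and Meis1 78.2 and 70.8.

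Of 8 nephron progenitor genes, 4 were lower and 0 higher in AkCk against Wt. Their sum was 405, 509 and 535 CPM in Wt_30, Wt_37 and Wt_55, 700.2, 457 and 415 in AkCh_20, AkCh_31 and AkCh_33, 373, 421 and 440.5 in AhCk_38, AhCk_110 and AhCk_115 and 241, 214 and 375 in AkCk_24, AkCk_27 and AkCk_29. AkCk_27 had the lowest sum and the lowest Fgf20, and AkCh_20 the highest of both. Itga8 had the most counts, and the defining genes Six2 and Cited1 had 27.9, 13.2 and 58.4 and 11.6, 10.3 and 26.5 CPM in AkCk, against 67.2, 83.9 and 105 and 35.9, 49.1 and 47.0 in Wt. Cited1 passed the threshold and Six2 did not (adjusted p = 0.0868). Six2, Cited1, Eya1, Gdnf and Crym of this list are among the genes that the study picked from these libraries. The count of 4 lower is thus in part no separate result. By estimate, 7 of the 8 progenitor genes were below 0 and 1 above. Osr1 had a mean of 7.89 CPM in Wt and 9.01 in AkCk. Of 5 ureteric tip genes, 3 were lower in AkCk against Wt and 1 (Ret) in AhCk against Wt (beside 243 of 15902 genes), with sums of 213, 241 and 228 CPM in Wt, 209, 230.0 and 183 in AkCh, 198, 201 and 211 in AhCk and 138, 122 and 165 in AkCk. Gfra1 had the most counts, and in AkCk the defining genes Ret and Wnt11 had 9.59, 7.36 and 17.3 and 18.7, 22.4 and 28.2 CPM. Wnt11 is also among the genes that the study picked. By estimate, 4 of the 5 tip genes were below 0 and 1 above. Tspan8 had a mean of 53.4 CPM in Wt and 54.9 in AkCk.

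**Figure D5:**
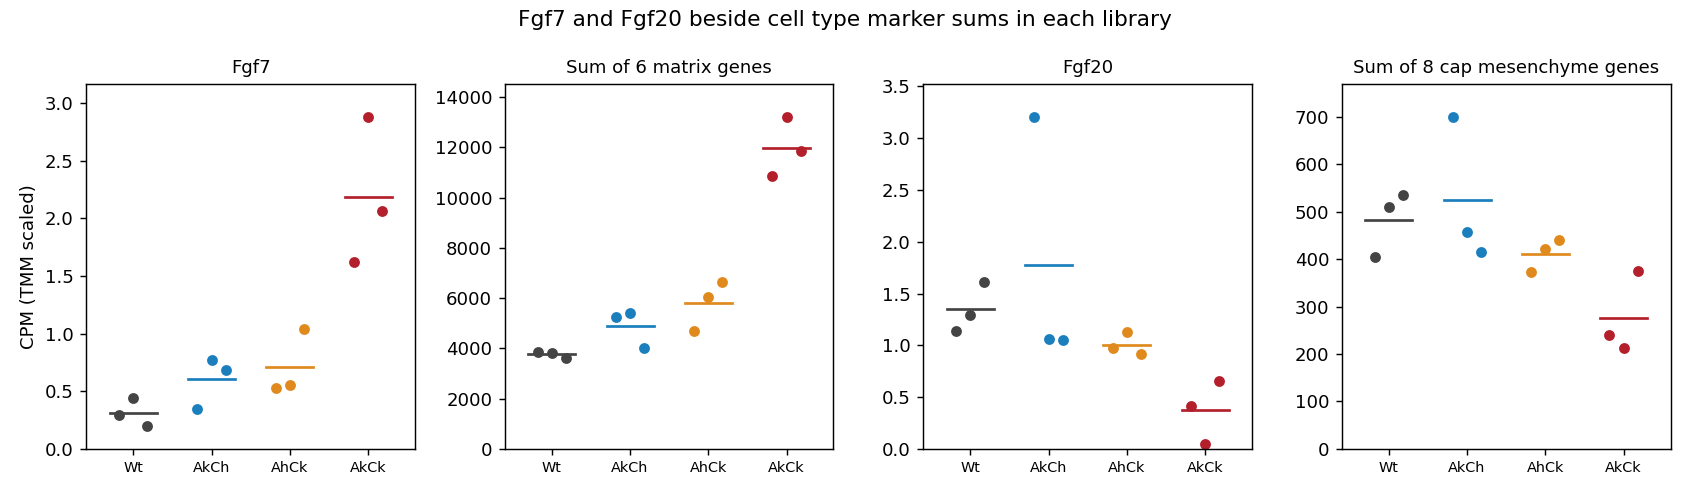
CPM in each library of Fgf7, of the sum of 6 matrix genes, of Fgf20 and of the sum of 8 nephron progenitor (cap mesenchyme) genes, with a line at the mean of each genotype. The AkCk libraries are the highest for Fgf7 and for the matrix sum (10860.4 to 13218 CPM) and the lowest for Fgf20.

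Of 7 ureteric epithelium genes, 2 were lower and 0 higher in AkCk against Wt, with sums of 885, 855 and 902 CPM in Wt, 873, 895 and 832 in AkCh, 854, 822 and 719 in AhCk and 768, 895 and 926 in AkCk, and Krt8 as the most abundant. Of 5 early nephron genes 1 was lower, with sums of 464, 489.7 and 563 CPM in Wt, 605, 472 and 425 in AkCh, 457, 509 and 545 in AhCk and 413, 355 and 409 in AkCk, Jag1 being the most abundant. Of 5 podocyte genes 3 were higher, with sums of 1111, 1175 and 1147 CPM in Wt, 675, 1252 and 1171 in AkCh, 1352, 1191 and 1289 in AhCk and 1569.7, 1715 and 1358 in AkCk, Podxl being the most abundant. The 3 AkCk libraries were thus the lowest of the 12 in the early nephron sum and the highest in the podocyte sum. Of 6 proximal tubule genes 0 passed in edgeR, with sums of 2720.0, 1300.1 and 1012 CPM in Wt, 423, 2318 and 3096 in AkCh, 2888, 1830.0 and 1421 in AhCk and 2631, 3024 and 2067 in AkCk, Lrp2 being the most abundant. AkCh_20, with the lowest proximal tubule sum, was also the lowest library for Fgfr3 (22.1 CPM) and Fgfr4 (25.5 CPM). Markers of neighboring tissues were low. The liver sum was 4.16, 4.87 and 5.94 CPM in Wt, 44.9, 23.8 and 4.70 in AkCh, 12.2, 6.82 and 32.3 in AhCk and 17.8, 27.1 and 9.21 in AkCk, with 2 of 5 higher in AkCk against Wt, Alb being the most abundant. The skeletal muscle sum was 2.57, 2.17 and 7.23 CPM in Wt, 5.95, 3.01 and 2.51 in AkCh, 2.41, 5.67 and 5.85 in AhCk and 9.30, 11.6 and 4.31 in AkCk (1 of 5 higher, Myh3, while Tnnt3, the most abundant, did not pass, at -0.57). The adrenal sum was 4.32, 4.54 and 5.42 CPM in Wt, 4.71, 4.29 and 4.27 in AkCh, 4.23, 4.75 and 4.71 in AhCk and 5.22, 4.74 and 10.4 in AkCk (0 of 3 tested in edgeR, Star being the most abundant, with Cyp11a1 at 0 in AkCh_20).

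The genes most like Fgf7 over the 12 libraries, by the root-mean-square difference of centered log2 CPM among 16260 genes, were Fndc1 (0.31), Mmrn1 (0.33) and Lum (0.38), where the median gene had 1.08. Lum, a collagen-binding proteoglycan, is also on the list of matrix genes, and it had 16.9, 14.8 and 12.4 CPM in Wt and 85.7, 149 and 127 in AkCk. For Fgfr1 the most alike were Cnot3 (0.051), Trpc2 (0.063) and Fam189b (0.068), where the median gene had 0.35.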

How the data were processed

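Whole E18.5 kidneys gave 12 libraries (TruSeq, paired end), with 28616877 (AkCh_20) to 47067903 counts and a median of 39328488. The authors aligned reads to mm10 and counted with Strand NGS, and reads aligned to more than 1 place were removed. The counting annotation and strand setting are not given in the sources used here. The deposited expected counts were rounded to whole numbers, and the authors' deposited log2 values served as an alternative. Of 92 symbols listed more than once, the copy holding most reads was used under that symbol. Hras is listed as Hras1, and Spry3 was not analysed here.

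In R 4.3.3, edgeR 4.0.16 was run with filterByExpr (minimum count 10, minimum total 15), TMM and the quasi-likelihood test on the 6 libraries of each comparison, with p adjusted by the Benjamini-Hochberg method over the genes tested and a threshold of 0.05. The fits were also tested on simulated data, with no outcome given here, so no result rests on it. Poisson intervals (95%) and the floor of 3 counts per library cover counting error only. RPKM used the joined exon length of GENCODE M21. The alternatives were RLE factors, DESeq2 1.42.0, all genes with at least 1 count, all 12 libraries, the 9 libraries outside the AhCk run, all 12 with Xist as a covariate (0.5 CPM added), limma 3.58.1 on those log2 values, Audic-Claverie p-values (AkCk against Wt) and leaving out each library. Figures were drawn in Python 3.11.15 with matplotlib 3.10.9. Members and lists were chosen with earlier results of these data known. Genes named are the members, the targeted Hox genes and the 3 genes most like each called member (prior count 2). Of each pathway list they are those past the threshold in AkCk against Wt (at most 3 each way) and, for most lists, the most abundant. Of each marker list the most abundant is named. For the matrix, stroma, nephron progenitor and ureteric tip lists the first 2 are named as well. Some other genes, such as Myh3 and Cyp11a1, are named outside this rule.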

Additional observations from a re-analysis of the deposited data

Results flagged for a closer look

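Fgfr2 stood on opposite sides of the wild type mean in a pair of genotypes. Every AkCk library (mean 133 CPM) was below the Wt mean of 163 CPM, and every AhCk library (mean 176 CPM) was above it. Neither comparison with Wt passed the threshold (log2 fold change -0.30, adjusted p = 0.0511 for AkCk, and 0.12, adjusted p = 0.451 for AhCk), and the AhCk and Wt libraries overlapped. The difference between these effects was not tested, and for AhCk the genotype and the sequencing run cannot be told apart.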

How the results depend on the processing

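Fgf7 in AkCk against Wt was past the threshold in every alternative and in every fit that left out a library. FGF members past it in this comparison numbered 2, and 4 with DESeq2, 1 with all 12 libraries, 1 with the 9 libraries of the other run, 1 with Xist as a covariate, 1 with limma, 10 with Audic-Claverie and 1 to 3 with a library left out. All genes past it numbered 2171, and 3380, 1190, 690, 984, 1215 and 12089 in the same order, and 535 to 3386 with a library left out. In AkCh against Wt they numbered 0, and 22 with DESeq2, 2 with all 12 libraries, 1 with limma and 0 to 8 with a library left out. In AhCk against Wt they numbered 376, and 1309 with DESeq2 (1 member), 149 with all 12 libraries, 124 with Xist, 158 with limma (of which 45.6% higher, against 35.4%) and 60 to 549 with a library left out. In AkCk against AkCh they numbered 0, and 554 with DESeq2, 540 with all 12 libraries and 646 with Xist (1 member each), 1 with no filter, 181 with 9 libraries, 1 with limma and 0 to 687 with a library left out. Log2 fold changes changed sign with Xist for Fgf9 in AkCk against Wt (0.20) and AhCk against Wt (0.099), with Xist and limma for Fgfr4 in AkCh against Wt (-0.20 and -0.049), and for Fgfr3 in AkCk against AkCh (0.011 and 0.0041). With a library left out, signs changed in AkCk against Wt for Fgf9 (-0.32 to 0.028) and Fgfrl1 (-0.19 to 0.0086), in AkCh against Wt for Fgf9 (-0.19 to 0.52), Fgf20 (-0.35 to 0.65), Fgfr1 (-0.18 to 0.0069), Fgfr3 (-0.39 to 0.049), Fgfr4 (-0.18 to 0.26) and Fgfrl1 (-0.028 to 0.079), in AhCk against Wt for Fgf9 (-0.25 to 0.054) and Fgfr1 (-0.0038 to 0.15) and in AkCk against AkCh for Fgf1 (-0.46 to 0.066), Fgf9 (-0.60 to 0.13), Fgfr3 (-0.25 to 0.18), Fgfr4 (-0.0087 to 0.42) and Fgfrl1 (-0.19 to 0.0082). The cause was not tested. No paired analysis was possible because the groups share no replicate numbers, and Audic-Claverie was run for AkCk against Wt alone. DESeq2 gave no adjusted p for Fgf5. Depth limits Fgf7 and Fgf20 most, as Fgf7 had 8 counts in Wt_55 and Fgf20 2 in AkCk_27.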
